A study of Mus musculus with 20 samples.

Results

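The nuclear genome codes for most subunits of the respiratory chain and ATP synthase, and 79 genes of this class were measured in the frontal cortex of TDP-43 Q331K knock-in mice. They were chosen by name from the 25965 rows of the count table: complex I genes (Nduf), complex II genes (Sdha to Sdhd), complex III genes (Uqcr), complex IV genes (Cox4 to Cox8) and ATP synthase genes (Atp5, complex V), with a mean of at least 1 CPM over the 20 libraries and without Cox6a2. CPM stands for the counts of a gene per 1000000 counts of the tested genes, after TMM scaling between libraries. The homozygous group held 8 libraries from mice with the Q331K substitution on both Tardbp alleles, the heterozygous group held 6 libraries from mice with 1 such allele, and the wild-type group held 6 libraries from +/+ mice. Every mouse was 5 months old and of C57BL/6 background, and polyadenylated RNA was sequenced from frontal cortex tissue. TDP-43 is a nuclear RNA-binding protein, and the knock-in places the substitution in the mouse gene itself, under its own promoter. The labels do not say how many animals gave the libraries, so the p-values measure the spread between these libraries.

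Of 87 rows with a matching name, 7 fell below the level threshold, among them the minor isoforms Cox4i2 (mean 0.864 CPM), Cox7a1 (0.769 CPM) and Cox6b2 (0.741 CPM), and Cox6a2 was left out by name. The lowest members inside it were Ndufa4l2 (1.65 CPM) and Atp5s (9.13 CPM). Complex I had 36 members, complex II 4, complex III 8, complex IV 13 and complex V 16, with Ndufa4 and its homolog Ndufa4l2 counted in complex IV, where the Ndufa4 protein is found. The other 2 members are not subunits, although their table symbols look like it. Cox4nb is listed as Emc8 in GENCODE and codes for a subunit of the endoplasmic reticulum membrane complex, and Atp5sl is listed there as Dmac2. The label "respiratory chain subunit genes" therefore held for 77 of the 79 if Atp5s is counted, which codes for coupling factor B, a protein bound to ATP synthase, and which RefSeq lists as Dmac2l.

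Complexes I to IV pass electrons from NADH and succinate to oxygen in the inner mitochondrial membrane, complexes I, III and IV pump protons as they do so, and complex V uses the proton gradient to make ATP. Neurons depend on this pathway for much of their ATP, which pays for ion pumping and synaptic transmission. Each complex except complex II is built from subunits of both genomes, so its nuclear subunits have partners coded by the mitochondrial chromosome.

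**Figure D1:**
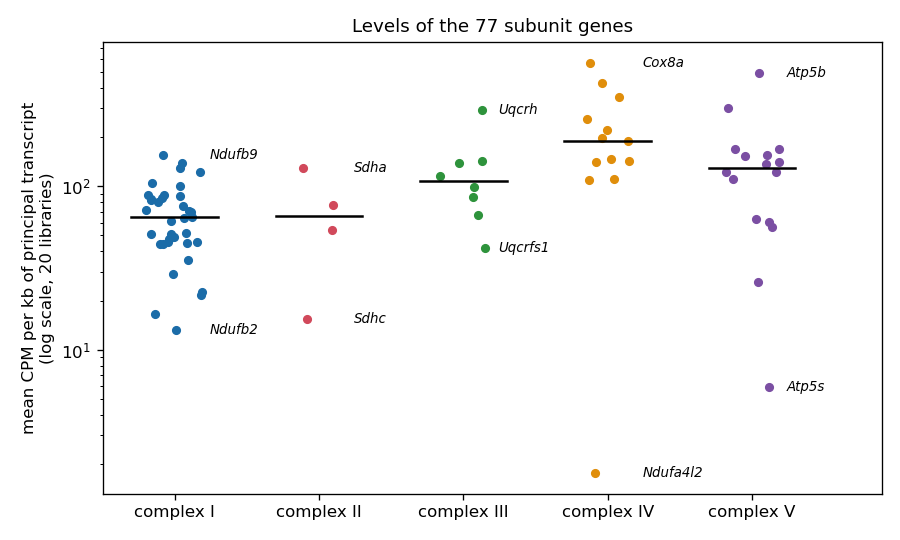
Mean level of each of the 77 subunit genes over the 20 libraries, in CPM per kilobase of the principal coding transcript on a log scale; each point is 1 gene, the black line is the median of its complex, and the highest and lowest gene of each complex are named. Complex IV has the highest median (188 CPM per kb) and complex I the lowest (64.6 CPM per kb).

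The levels differed between the complexes. Per kilobase of the principal coding transcript, the median member stood at 188 CPM in complex IV, 130 in complex V, 108 in complex III, 65.4 in complex II and 64.6 in complex I. The highest members were Cox8a (568 CPM per kb), a small complex IV subunit, and Atp5b (496 CPM per kb), the catalytic beta subunit of ATP synthase. In complex III the range ran between 42.1 CPM per kb for Uqcrfs1, the Rieske iron-sulfur protein, and 291 for Uqcrh, the hinge protein. Sdha, the flavoprotein of succinate dehydrogenase, had 130 CPM per kb, and Sdhc, 1 of its membrane anchors, had 15.4. In complex I the range ran between 13.2 for Ndufb2 and 154 for Ndufb9, which are both accessory subunits. Ndufa4l2 (1.76 CPM per kb) and Atp5s, the factor B gene (5.92), were far below the rest of their complexes. These orders depend on the annotated lengths: with all exons of a gene merged, the medians were 90.3, 49.4, 67.1, 46.5 and 37.1 CPM per kb for complexes IV, V, III, II and I, so that complex V then stood below complex III.

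Promoters of these genes are known for sites of a few shared activators, and the RefSeq table (build GRCm38.p6) held a window of 300 bases, running 250 bases upstream to 50 bases downstream of the annotated start, for 65 of the 77 subunit genes (70 windows). Short forms of 4 sites were searched on both strands: GCGCANGCG for nuclear respiratory factor 1 (NRF1), CCGGAAG for ETS factors such as GABPA, AAGATGGCG for YY1 and AAGGTCA for the estrogen-related receptors. The NRF1 letters were in 30.0% of the subunit windows, against 6.25% of all 32851 windows and 11.1% of the 14480 windows of genes that were tested here. For the ETS letters the shares were 22.9%, 8.86% and 14.2%, for YY1 1.40% and 2.37% beside 7 of the 70 subunit windows, and for the estrogen-related receptors 11.4%, 4.72% and 3.43%. Below are the windows of the member with the smallest homozygous p-value in each complex among those with a window, 5′ to 3′ on the coding strand, with every match in capitals: Ndufb7 at chr8:83566508-83566807 (plus strand), Sdhd at chr9:50603800-50604099 (minus), Uqcr11 at chr10:80406772-80407071 (minus), Cox6a1 at chr5:115348909-115349208 (minus) and Atp5l at chr9:44920693-44920992 (minus).
Ndufb7: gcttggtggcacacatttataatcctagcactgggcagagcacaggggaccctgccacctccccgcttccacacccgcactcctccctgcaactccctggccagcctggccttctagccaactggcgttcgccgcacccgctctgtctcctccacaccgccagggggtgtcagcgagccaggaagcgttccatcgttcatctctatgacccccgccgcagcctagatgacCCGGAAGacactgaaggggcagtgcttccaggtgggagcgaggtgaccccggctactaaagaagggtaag
Sdhd: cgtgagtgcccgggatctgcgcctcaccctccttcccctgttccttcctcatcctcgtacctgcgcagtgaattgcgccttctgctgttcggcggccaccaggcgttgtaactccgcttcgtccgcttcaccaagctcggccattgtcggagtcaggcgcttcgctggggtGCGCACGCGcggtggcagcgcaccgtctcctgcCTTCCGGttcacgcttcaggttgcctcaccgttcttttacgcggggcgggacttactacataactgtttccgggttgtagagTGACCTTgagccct
Uqcr11: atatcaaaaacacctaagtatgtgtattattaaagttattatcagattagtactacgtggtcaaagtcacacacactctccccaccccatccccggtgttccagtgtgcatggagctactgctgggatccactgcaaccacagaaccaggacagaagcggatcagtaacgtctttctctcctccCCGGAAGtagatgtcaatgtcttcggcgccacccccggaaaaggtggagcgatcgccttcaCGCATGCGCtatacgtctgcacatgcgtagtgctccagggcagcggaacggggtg
Cox6a1: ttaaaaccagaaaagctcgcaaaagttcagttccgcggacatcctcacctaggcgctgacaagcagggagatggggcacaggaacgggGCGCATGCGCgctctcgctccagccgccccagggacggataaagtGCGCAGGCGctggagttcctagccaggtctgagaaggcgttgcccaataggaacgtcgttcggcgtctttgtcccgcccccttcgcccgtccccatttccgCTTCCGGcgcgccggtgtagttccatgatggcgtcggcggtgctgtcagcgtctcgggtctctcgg
Atp5l: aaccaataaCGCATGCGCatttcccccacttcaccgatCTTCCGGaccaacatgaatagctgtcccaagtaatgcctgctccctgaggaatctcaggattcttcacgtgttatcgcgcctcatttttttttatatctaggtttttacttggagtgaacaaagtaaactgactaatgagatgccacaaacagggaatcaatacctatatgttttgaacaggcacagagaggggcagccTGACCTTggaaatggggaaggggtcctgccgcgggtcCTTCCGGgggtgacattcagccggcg
The Ndufb7 window held 1 ETS match only. Sdhd held 1 match each for NRF1, ETS and the estrogen-related receptors, and Uqcr11 held 1 each for NRF1 and ETS. Cox6a1 held 3 NRF1 matches, of which a pair overlap on a palindromic stretch, and 1 ETS match. Atp5l held 1 NRF1, 2 ETS and 1 estrogen-related receptor match. A match is a string of letters, and nothing here measured binding.

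No subunit gene passed the test in homozygous cortex, while most of them sat slightly below wild type. Of the 77 subunit genes, 0 were called at an adjusted p under 0.05 by edgeR's quasi-likelihood test against a background of 1.56% of the 16690 genes tested (261 genes). DESeq2 called 1 subunit gene, Atp5l, beside 638 of the 16690 genes tested. The log2 changes were negative for 70 of the 77 and positive for 7, where 49.4% of all genes tested were negative. The median log2 change was -0.045 for the subunits and 0.0013 for all genes tested. At an unadjusted p under 0.05, 17 subunit genes were called, each of them lower, and 8.06% of all genes tested were lower at that level. For 70 of the 79 members, the 95% interval of the log2 change lay between -0.2 and 0.2, and the outermost bounds were -0.374 (Ndufc1) and 0.47 (Ndufa12). In bulk tissue, fewer cells of a type and less RNA per cell cannot be told apart.

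**Figure D2:**
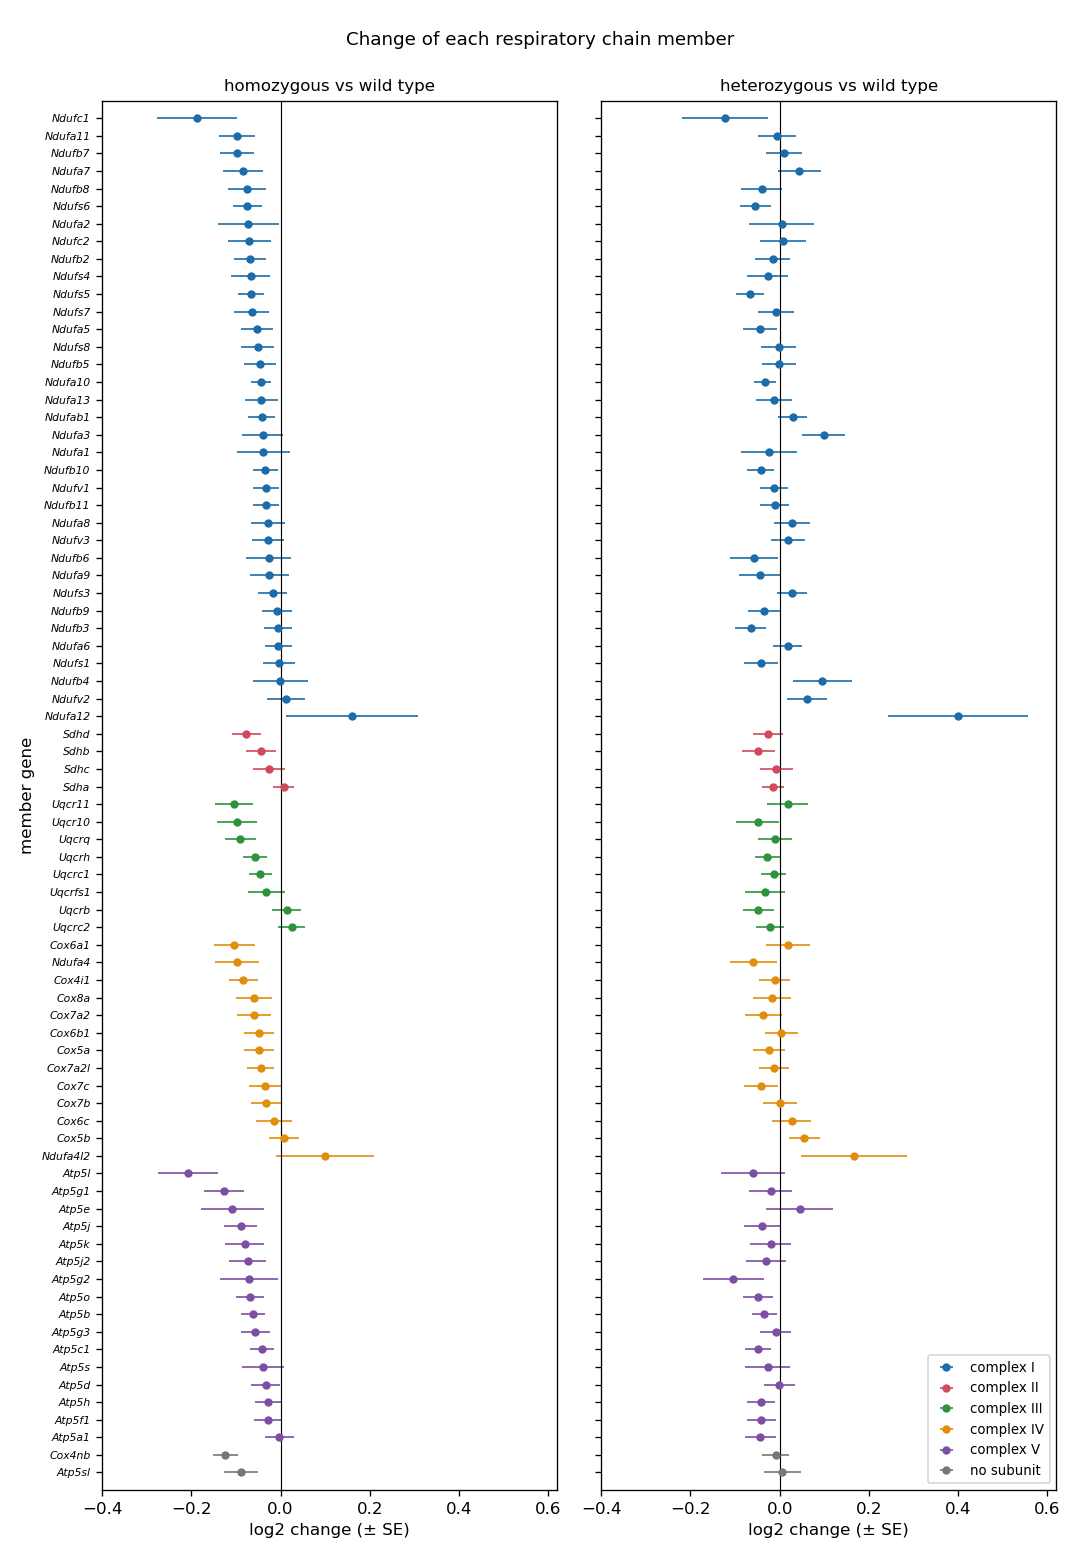
Log2 change of each of 78 of the 79 members in homozygous against wild-type cortex (left) and heterozygous against wild-type cortex (right), with bars for 1 SE; genes are grouped by complex and sorted by the homozygous change. On the left 71 of 78 points are below 0, and on the right 56 are, with Ndufa12 at 0.40.

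The 1 member called was Cox4nb, the endoplasmic reticulum gene, which codes for no respiratory chain subunit. Its lowest, median and highest levels were 41.1, 43.1 and 45.3 CPM in homozygous, 44.6, 47.3 and 48.1 CPM in heterozygous and 46.1, 47.2 and 47.7 CPM in wild-type libraries. All homozygous libraries were below all wild-type libraries, which was so for no other member and for 0.515% of the genes tested. Cox4nb fell by 0.12 on the log2 scale in homozygous cortex (SE 0.0281, adjusted p = 0.024 by edgeR). The call ended without the 4 libraries of high ependymal marker score (edgeR adjusted p = 0.0935), with 3 surrogate variables (0.295), without wild-type replicate 1 (0.0503) and without wild-type replicate 3 (0.0565). The 4 libraries include homozygous replicates 1, 2 and 4, so that fit also had a smaller homozygous group. Cox4nb and Cox4i1 overlap head to head on chromosome 8 (120653914 to 120668112 on the minus strand and 120668290 to 120674209 on the plus strand by the table's coordinates, with an overlap between GENCODE transcripts), and the strand setting of the counting is not given in the sources used here.

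Complex I oxidises NADH, and its nuclear members are a few core subunits, which carry the flavin and iron-sulfur clusters or sit beside them, and many accessory subunits. Over its 36 members the median homozygous log2 change was -0.043, with 34 negative and 2 positive. Ndufb7, an accessory subunit of the membrane arm, had 41.1, 44.4 and 50.3 CPM (lowest, median, highest) in homozygous, 45.2, 48.8 and 51.6 CPM in heterozygous and 46.5, 48.2 and 50.01 CPM in wild-type libraries. Its homozygous and wild-type ranges overlapped, and its log2 change of -0.097 (SE 0.0376) was the complex I change of smallest p among the negative ones (edgeR adjusted p = 0.195). Ndufb9, the complex I member of highest level per kilobase of principal transcript, averaged 109.1 ± 5.3 CPM in homozygous (SD, n = 8), 107.2 ± 5.5 in heterozygous and 109.8 ± 3.1 in wild-type libraries (n = 6 each). Ndufb2 averaged 31.1 ± 1.4, 32.3 ± 1.9 and 32.6 ± 0.66 CPM in the same order of genotypes.

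Complex II, succinate dehydrogenase, is the only complex made of nuclear subunits alone and is shared with the tricarboxylic acid cycle. Sdha had 373.1, 375.0 and 393.0 CPM in homozygous, 360.2, 372.1 and 387.0 CPM in heterozygous and 372.1, 376.5 and 385.5 CPM in wild-type libraries (lowest, median, highest). These ranges lay on each other, and its homozygous log2 change was 0.0075 (95% interval -0.041 to 0.056). Sdhd, a membrane anchor that binds ubiquinone, averaged 64.3 ± 3.2 CPM in homozygous, 66.6 ± 1.5 in heterozygous and 67.8 ± 2.5 in wild-type libraries, a homozygous log2 change of -0.077 (SE 0.032, adjusted p = 0.23 by edgeR). Sdhb, the iron-sulfur subunit, averaged 87.3 ± 4.6, 87.1 ± 3.1 and 90.0 ± 3.4 CPM in homozygous, heterozygous and wild-type libraries, and Sdhc 48.4 ± 2.7, 49.0 ± 2.0 and 49.2 ± 1.5 CPM.

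In complex III, the cytochrome bc1 complex, the small subunits were further below wild type than the core. Uqcrc1, Uqcrc2 and Uqcrfs1 had a median homozygous log2 change of -0.032, and the 5 small supernumerary genes one of -0.090. Of those 5, 4 were lower at an unadjusted p under 0.05 by edgeR, beside 8.06% of all genes tested. The difference between these 2 sets was not tested and was not separated from transcript length. Principal transcripts had 445 bases for Uqcr11 and 547 for Uqcrh, and 1653 for Uqcrc1 and 1896 for Uqcrc2. All tested genes of up to 600 bases had a median homozygous log2 change of -0.0385, and those of 1000 to 2000 bases one of -0.013. Uqcrq, the ubiquinone-binding small subunit, had 56.4, 61.6 and 67.2 CPM in homozygous, 63.5, 65.5 and 68.8 CPM in heterozygous and 63.7, 66.0 and 69.2 CPM in wild-type libraries. The homozygous range reached lower than both others and overlapped them, and the log2 change was -0.090 (SE 0.0352, edgeR adjusted p = 0.198). Uqcrh averaged 156.3 ± 5.0 CPM in homozygous, 159.5 ± 5.8 in heterozygous and 162.6 ± 2.3 in wild-type libraries. Uqcrc2, a core protein, and Uqcrb, a small matrix-side subunit, were the 2 members with positive homozygous changes (0.025 and 0.013), and Uqcrfs1 had -0.032.

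Complex IV, cytochrome c oxidase, takes its catalytic core from the mitochondrial chromosome and its regulatory subunits from the nucleus. Cox4i1, the main isoform of subunit 4, had 245.7, 252.6 and 275.9 CPM in homozygous, 247.2, 269.9 and 286.6 CPM in heterozygous and 257.6, 270.8 and 286.1 CPM in wild-type libraries. The homozygous median was below every wild-type library but 3 of 8 homozygous libraries were inside the wild-type range, and the log2 change was -0.083 (SE 0.0327, adjusted p = 0.203 by edgeR). Cox8a averaged 305.7 ± 16.6, 315.0 ± 18.8 and 318.8 ± 16.2 CPM in homozygous, heterozygous and wild-type libraries. Cox5b, which binds zinc on the matrix side, averaged 161.3 ± 6.5, 166.7 ± 6.4 and 160.5 ± 7.9 CPM, and its heterozygous log2 change of 0.055 (SE 0.0354) was the complex IV change of smallest p in that comparison (edgeR adjusted p = 1.0).

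Complex V had a negative log2 change for all 16 members in homozygous cortex, with a median log2 change of -0.065. By place in the enzyme, the medians were -0.042 for the 5 genes of the catalytic F1 head (the alpha to epsilon subunits), -0.049 for the 4 of the peripheral stalk, -0.070 for the 3 that code for the c ring and -0.081 for the 3 supernumerary membrane subunits. Differences between these places were not tested and were not separated from transcript length. Atp5l, subunit g at the dimer interface of the membrane part, was the subunit gene of smallest homozygous p. It had 50.3, 53.4 and 65.3 CPM in homozygous, 55.0, 63.4 and 67.5 CPM in heterozygous and 57.2, 64.2 and 71.9 CPM in wild-type libraries. The genotypes overlapped, since the 3 highest homozygous libraries were inside the wild-type range. Its log2 change was -0.21 (SE 0.0666, unadjusted p = 0.00517, adjusted p = 0.119 by edgeR). It was called with DESeq2 (adjusted p = 0.0436) and with a term for replicate numbers 4 and above (0.00476), and 3 of the 31 alternatives run called it in all. Atp5b had 879.1, 937.2 and 984.3 CPM in homozygous, 931.9, 943.5 and 980.0 CPM in heterozygous and 951.2, 969.7 and 991.7 CPM in wild-type libraries, a log2 change of -0.061 (SE 0.0266). Atp5c1, the gamma subunit of the rotor, averaged 158.0 ± 4.3, 157.3 ± 5.1 and 162.7 ± 5.3 CPM in homozygous, heterozygous and wild-type libraries, and Atp5s 9.03 ± 0.64, 9.11 ± 0.31 and 9.28 ± 0.37 CPM. Atp5a1, the alpha subunit, differed least, with a log2 change of -0.0027 (95% interval -0.069 to 0.063).

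Summed over the members of a complex, the levels followed the same pattern at a small scale. The 77 subunit genes together had 8367 ± 227 CPM in homozygous (n = 8), 8521 ± 150 CPM in heterozygous and 8622 ± 120 CPM in wild-type libraries (n = 6 each), a difference from the wild-type mean of -2.96% for homozygous and -1.17% for heterozygous libraries. The homozygous mean differed from the wild-type mean by -3.88% for complex IV, -3.21% for complex V, -2.74% for complex III, -2.46% for complex I and -0.88% for complex II. Every one of these ranges overlapped between homozygous and wild-type libraries.

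**Figure D3:**
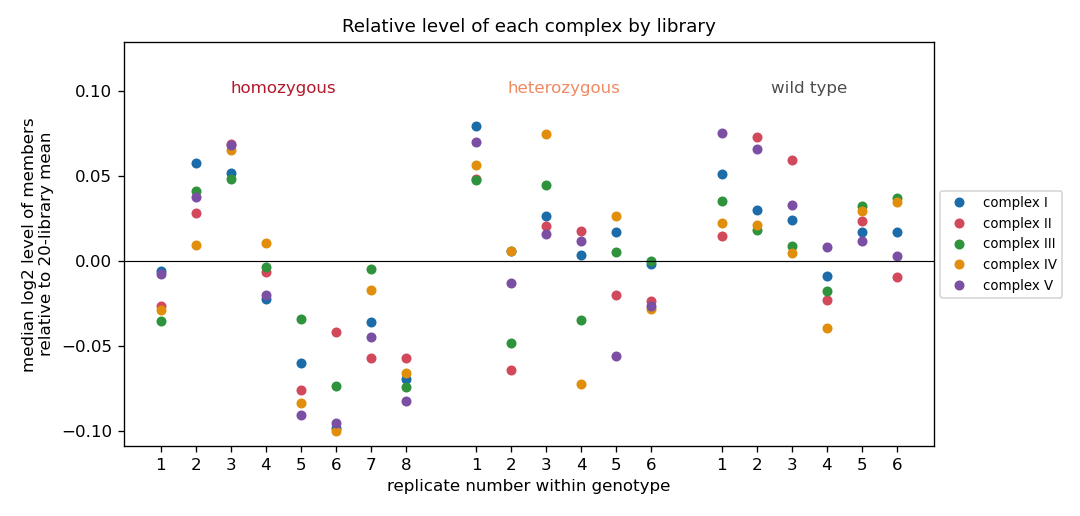
Median log2 level of the members of each complex in each library, relative to each gene's mean over the 20 libraries; the x axis gives the replicate number within the genotype, and colours mark the complexes. Homozygous replicates 1, 5, 6, 7 and 8 lie below 0 for each complex, and homozygous replicates 2 and 3 lie above 0 for each complex. The complexes spread apart in some libraries, such as heterozygous replicate 4, with complex IV at -0.073 and complex II at 0.018.

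The libraries of 1 genotype differed among themselves by as much as the genotypes did. The median subunit gene stood at -0.025 ± 0.053 (log2, relative to its mean over the 20 libraries) in homozygous, 0.011 ± 0.033 in heterozygous and 0.023 ± 0.022 in wild-type libraries. Homozygous replicate 6 was lowest at -0.095, with 68 of 77 subunits below their own mean, and homozygous replicate 3 was at 0.058, with 6 below it. Without homozygous replicate 3 the median member change against wild type was -0.061, and without homozygous replicate 6 it was -0.038.

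Heterozygous cortex held no called member. By edgeR's test 0 of 79 members had an adjusted p under 0.05, where 0.0% of all genes tested did. DESeq2 called 0 members as well, beside 2 of all genes tested. By edgeR 2 members (2.53%) had an unadjusted p under 0.05, beside 3.19% of all genes tested. Those were Ndufa12 (higher) and Ndufs5 (lower, log2 change -0.066, adjusted p = 1.0). Of the 79 members, 56 were negative with a median log2 change of -0.015, beside 48.8% of all genes tested. By complex the heterozygous medians were -0.0097 in complex I, -0.021 in II, -0.025 in III, -0.011 in IV and -0.037 in V. Homozygous against heterozygous cortex gave 0 calls among the members by edgeR (background 0.108%). DESeq2 called 1 member, Cox4nb, beside 103 of the 16690 genes tested. At an unadjusted p under 0.05 by edgeR there were 14 of 79 members, each lower in homozygous, beside 1838 of all 16690 genes tested, of which 1049 were lower. In that comparison 61 of 79 were negative (50.2% of all genes tested) with a median of -0.041. The trend over the number of Q331K alleles called 1 member, again Cox4nb (log2 change per allele -0.065, edgeR adjusted p = 0.0247, background 1.83%), with a member median of -0.024 per allele. These comparisons share libraries, so their values are not independent of each other.

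Ndufa12 was the member of the widest spread between libraries. This accessory subunit of complex I belongs to the NADH-oxidising module, and its gene lies on chromosome 10 (94198955 to 94221443, plus strand). Its level was 40.0 to 45.0 CPM in 13 libraries, among them all 6 of wild type (40.9 to 45.0 CPM). The homozygous libraries 1 to 8 had 41.9, 52.2, 51.3, 40.8, 73.8, 41.1, 40.0 and 41.9 CPM, and the heterozygous libraries 1 to 6 had 42.1, 68.1, 49.9, 67.4, 43.1 and 68.1 CPM. A level above 50 CPM was thus found in 3 of 8 homozygous, 3 of 6 heterozygous and 0 of 6 wild-type libraries. This cut was not planned, and heterozygous replicate 3, at 49.9 CPM, fell just under it while above the 13 libraries of 40.0 to 45.0 CPM. The values sat near a few separate levels rather than in 1 cloud. The log2 change was 0.16 (SE 0.147) in homozygous and 0.40 (SE 0.157, unadjusted p = 0.0203, edgeR adjusted p = 1.0) in heterozygous against wild-type cortex. Its biological coefficient of variation, the spread between libraries beyond counting error, was 0.187, against a median of 0.0499 for the 77 subunit genes and 0.0708 for all genes tested. The highest level was 1.84 times the lowest for Ndufa12, and for the genes beside it 1.21 times for Nr2c1, 1.45 for Tmcc3, 1.31 for Fgd6 and 1.11 for Vezt.

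In Ndufb4, an accessory subunit of the membrane arm, the highest level was 1.37 times the lowest. It reached 51.3 CPM in homozygous replicate 6, and 50.6 and 53.9 CPM in heterozygous replicates 5 and 6, with 39.4 to 46.0 CPM in the other 17 libraries. Of the 20 libraries, only heterozygous replicate 6 was above 50 CPM for both genes.

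**Figure D4:**
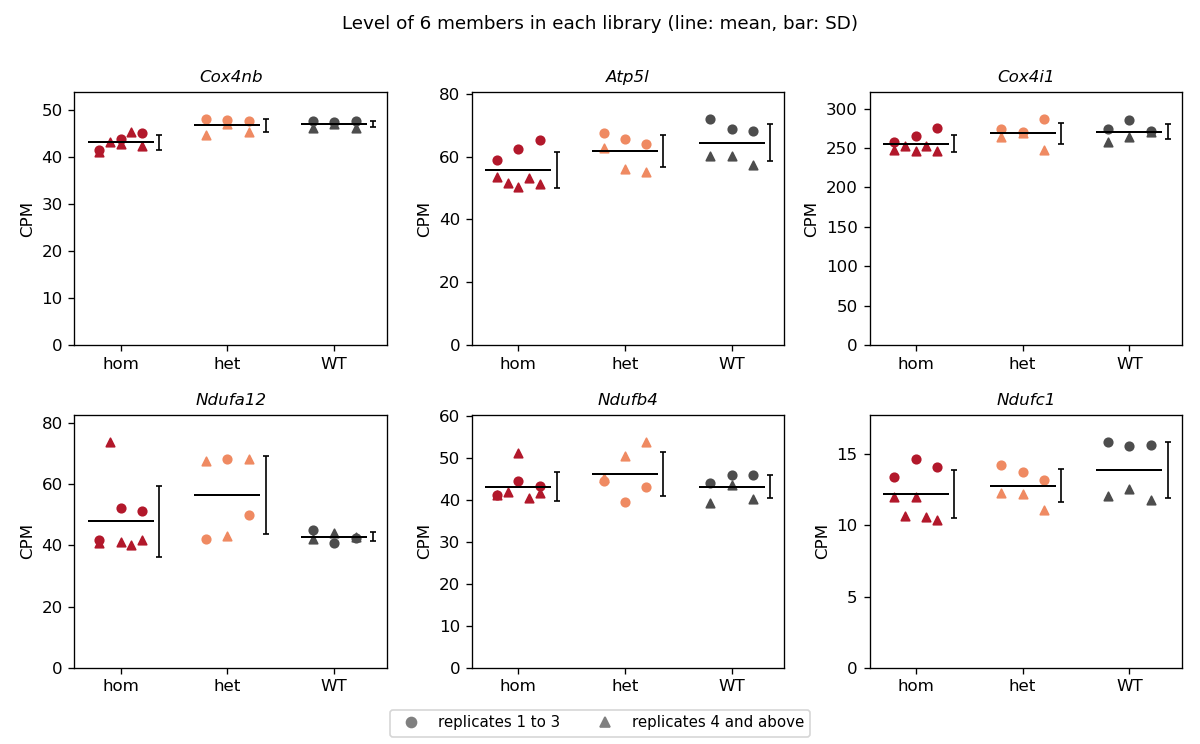
CPM of 6 members in each library of the homozygous (hom), heterozygous (het) and wild-type (WT) groups; circles are replicates 1 to 3, triangles replicates 4 and above, lines the means and bars the SD. Ndufa12 exceeds 50 CPM in 6 libraries and none of them is wild type, and for Atp5l, Cox4i1 and Ndufc1 the circles lie above the triangles in each genotype.

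The members as a set followed the replicate number within each genotype, and some did so without overlap. The median member difference, replicates 1 to 3 minus 4 and above, was 0.073 (log2) in homozygous, 0.037 in heterozygous and 0.035 in wild-type libraries. It was negative for 11, 20 and 23 of the 79 members, and the medians of all genes tested were 0.0016, -0.0002 and 0.0. Numbers 4 and above held 5 homozygous and 3 wild-type libraries. For Ndufc1, Ndufa2, Cox4i1, Cox6b1, Atp5j2 and Atp5l, replicates 1 to 3 were above replicates 4 and up in homozygous, heterozygous and wild-type libraries alike. That is 6 of 79 members, beside 0.294% of all genes tested (49 genes). No member had replicates 1 to 3 below 4 and up in every genotype. Atp5l had 59.0, 62.4 and 65.3 CPM in homozygous replicates 1 to 3 and 50.3 to 53.5 CPM in the other 5. In wild type it had 71.9, 68.9 and 68.1 CPM in replicates 1 to 3 and 60.2, 60.3 and 57.2 CPM in the others. The labels do not say what the number stands for, and 2 of the 8 homozygous libraries carry numbers 7 and 8 that no other genotype has. Within replicates 1 to 3 the median member difference, homozygous minus wild type, was -0.022 (54 of 79 negative), and within numbers 4 and above it was -0.068 (68 of 79 negative). Cox4nb differed by -0.13 and -0.11 and Atp5l by -0.16 and -0.19 in those 2 sets. These sets were formed after the values were seen.

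Transcript length went along with the changes. Subunit genes are short, and 20 of them have a principal transcript of up to 600 bases. Those 20 had a median homozygous log2 change of -0.074, beside -0.038 for all 201 tested genes of that length. For 600 to 1000 bases the medians were -0.051 for 27 subunit genes and -0.028 for all 765 genes, for 1000 to 2000 bases -0.037 for 22 and -0.013 for all 3328, and for 2000 to 4000 bases -0.034 for 8 and -0.0001 for all 6405. Genes over 4000 bases, which hold no subunit, had a median of 0.015. In each bin with subunit genes their median lay below that of all genes, by a difference that was not tested.

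**Figure D5:**
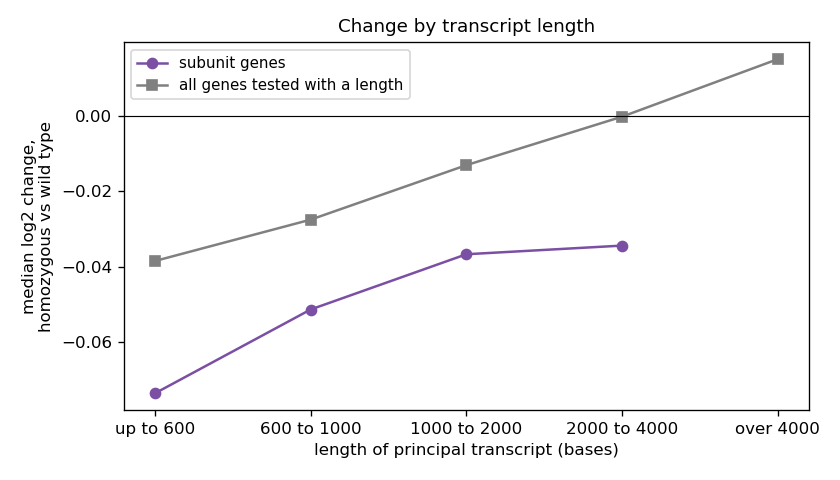
Median log2 change in homozygous against wild-type cortex by length of the principal transcript, for subunit genes (circles) and for all tested genes with an annotated length (squares). The median of all genes goes from -0.038 in the shortest bin to 0.015 in the longest, and the subunit medians lie below it in the 4 bins that hold any.

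Isoform use was compared through shares that need no scaling between libraries. The c ring of ATP synthase is made of identical proteins from Atp5g1, Atp5g2 and Atp5g3, which differ in their import sequences. Per merged exon length, Atp5g1 made up 15.8 ± 0.72% of the 3 in homozygous, 16.6 ± 0.80% in heterozygous and 16.4 ± 0.64% in wild-type libraries, and Atp5g2 24.9 ± 1.3%, 23.7 ± 2.1% and 24.9 ± 1.1%. Ndufa4l2 made up 1.81 ± 0.19%, 1.86 ± 0.56% and 1.58 ± 0.20% of the sum with Ndufa4. In 9 two-sided exact permutation tests the smallest p was 0.0526, for Ndufa4l2 in homozygous against wild-type cortex (adjusted over the 9 tests, 0.375), so no share differed beyond the spread between libraries. The levels behind them were, for Atp5g1, 65.7 ± 4.3, 70.8 ± 4.9 and 71.8 ± 3.9 CPM in homozygous, heterozygous and wild-type libraries, with a homozygous log2 change of -0.13 (SE 0.0456, edgeR adjusted p = 0.161). Atp5g3 had 109.2 ± 5.4, 112.9 ± 4.7 and 113.6 ± 2.9 CPM, Atp5g2 35.3 ± 2.9, 34.6 ± 4.2 and 37.1 ± 2.2 CPM, Ndufa4 114.1 ± 8.6, 117.2 ± 8.7 and 122.1 ± 6.8 CPM, and Ndufa4l2 1.66 ± 0.14, 1.74 ± 0.37 and 1.55 ± 0.15 CPM.

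Genes around the chain gave 2 calls in homozygous cortex, where 1.56% of all genes tested were called. Among 10 tested assembly factors of complex I, 3 of II, 4 of III, 14 of IV and 4 assembly and inhibitor genes of V, the call was Uqcc, an assembly factor of complex III also known as Uqcc1. It averaged 42.8 ± 1.4 CPM in homozygous, 45.7 ± 1.5 in heterozygous and 46.5 ± 0.76 CPM in wild-type libraries and fell by 0.12 on the log2 scale in homozygous cortex (SE 0.0279, adjusted p = 0.0272 by edgeR). Of the rest, the changes of smallest p were those of Nubpl (0.14) and Ndufaf4 (-0.071) for complex I, Sdhaf2 (-0.050) and Sdhaf1 (-0.024) for II, Sco2 (-0.089) and Cox19 (-0.074) for IV, and Atpif1 (-0.056) and Tmem70 (-0.084) for V. Among 15 regulators the call was Esrra, the nuclear receptor that drives many respiratory chain genes. Esrra had 34.7, 36.4 and 38.7 CPM in homozygous, 37.5, 39.5 and 41.4 CPM in heterozygous and 37.5, 39.8 and 42.7 CPM in wild-type libraries. It fell by 0.14 on the log2 scale in homozygous cortex (SE 0.0335, edgeR adjusted p = 0.0346). Whether the calls of Uqcc and Esrra held under other processing is not reported here. The 8 subunit genes with an AAGGTCA match in their window had a median homozygous log2 change of -0.073. The 57 with a window and no match had one of -0.045. For the ETS letters these were -0.069 (16 genes) and -0.044 (49), and for NRF1 -0.062 (20) and -0.045 (45). For YY1 they were -0.073 (7) and -0.045 (58). None of these differences was tested or separated from transcript length, and their relation to the Esrra level was not tested.

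Chain genes that the name rule missed, the cytochromes Cyc1 and Cycs and the small ATP synthase genes Usmg5 and 2010107E04Rik, gave 0 calls of 4 (median homozygous log2 change -0.062), with -0.11 for 2010107E04Rik and -0.067 for Cyc1 at the smallest p. The 16 genes of the tricarboxylic acid cycle and pyruvate dehydrogenase, which make the NADH that complex I uses, gave 0 calls (median -0.032, 13 negative), with Idh3a at -0.057 and Ogdh at -0.055. The 10 genes of coenzyme Q synthesis gave 0 calls (median 0.0020, 5 negative), with Coq3 at 0.088 and Pdss1 at -0.088.

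The 13 subunits of the mitochondrial chromosome, the partners of these nuclear genes, gave 0 calls in homozygous cortex (median log2 change -0.17, 12 negative, smallest p for mt-Co1 at -0.17 and mt-Nd4 at -0.15). For 7 of them the highest library was 1.40 to 1.88 times the lowest. The other 6, mt-Co2, mt-Atp8, mt-Atp6, mt-Co3, mt-Nd3 and mt-Nd4l, which lie next to each other on the mitochondrial chromosome save for transfer RNA genes, varied by 16.4 to 361 times. These 6 rows enter the median and the count of negative changes above, and no median over the other 7 alone was computed. The homozygous log2 changes of the 13 ran between -1.26 and 0.078. mt-Co2, a catalytic subunit of complex IV, had 34.6, 694 and 5920 CPM (lowest, median, highest) in homozygous, 237, 1690 and 5470 CPM in heterozygous and 43.5, 2300 and 8410 CPM in wild-type libraries. The genotypes overlapped, with a narrower range in heterozygous cortex, and no ratio of mitochondrial to nuclear subunits was computed from these 6 rows.

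Depth and tissue make-up can be given for all 20 libraries together. The total counts ran between 61282647 and 111440766 per library, and the mitochondrial chromosome took 6.26% to 9.31% of them in homozygous, 6.51% to 10.5% in heterozygous and 6.99% to 11.5% in wild-type libraries. Tardbp averaged 245.5 ± 10.5 CPM in homozygous, 230.1 ± 7.6 in heterozygous and 218.3 ± 5.5 CPM in wild-type libraries and rose by 0.17 on the log2 scale in homozygous cortex (adjusted p = 0.00372 by edgeR), which does not check the point mutation itself. All 6 cortical excitatory neuron markers were present (at least 70.7 CPM each). They summed to 3240 to 3701 CPM in homozygous, 3480 to 3649 in heterozygous and 3520 to 3824 CPM in wild-type libraries. Their homozygous log2 changes against wild type were negative for 3 and positive for 3 (median 0.0027). The 6 parvalbumin interneuron markers, of cells known to be rich in mitochondria, summed to 492 to 559 CPM in homozygous, 576 to 611 in heterozygous and 576 to 657 CPM in wild-type libraries. In homozygous cortex 3 of the 6 were called lower, beside 154 of the 16690 genes tested. The marker lists were chosen with earlier results of these data known, so this count is not independent of them. The 8 ependymal markers summed to 9.82 to 26.9 CPM in homozygous, 10.1 to 19.4 in heterozygous and 9.25 to 10.99 CPM in wild-type libraries. Of these markers 1 was called higher in homozygous cortex, beside 107 of the 16690 genes tested. Olfactory bulb markers (4 genes) summed to 6.08 to 72.8 CPM in homozygous, 6.63 to 10.5 in heterozygous and 6.55 to 18.8 CPM in wild-type libraries, and the 7 striatal markers reached 521 CPM in heterozygous replicate 1. Their part in the member changes was not tested. Without the 4 libraries of high ependymal score the median member change was -0.059. Those are homozygous replicates 1, 2 and 4 and heterozygous replicate 2. Leaving them out changed replicate numbers and group size along with tissue make-up, so that value does not isolate the tissue. The other lists, of choroid plexus, meningeal, astrocyte, oligodendrocyte, microglia and endothelial genes, held no called gene in homozygous cortex. All 7 meningeal genes nonetheless had positive log2 changes there (median 0.35), with sums of 77.5 to 123 CPM in homozygous, 71.2 to 93.1 in heterozygous and 52.0 to 98.04 CPM in wild-type libraries. All 5 choroid plexus genes tested were positive as well (median 0.46). The part of these genes in the subunit changes was not tested.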

How the data were processed

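Polyadenylated RNA was sequenced from 20 frontal cortex libraries, with a stranded kit per the labels' protocols. Trim Galore 0.4.3, HISAT2 2.0.5 and build GRCm38 are named in the submitters' processing notes; which program counted the reads, and with which strand option, is not given there. The deposited file holds raw counts per gene, made by the authors, for 25965 rows. Of 25909 gene identifiers, 24990 were found in GENCODE M21 (GRCm38), which gave names, lengths and overlaps; 27 members overlap a gene on the other strand and 6 one on the same strand.

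The counts were tested with edgeR 4.0.16 (R 4.3.3) by the quasi-likelihood test with TMM scaling and filterByExpr, in 1 fit of all 20 libraries by genotype, with Benjamini-Hochberg adjustment over 16690 genes and a threshold of 0.05; a second fit used the number of alleles. All 79 members passed the filter on low counts. The SE is the log2 change divided by the square root of F, and intervals are 95%. Isoform shares were compared by exact permutation over libraries. Scripts were tested on simulated data. DESeq2 1.42.0, sva 3.50.0, other filters, a replicate block and left-out libraries were alternatives.

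1 member enters the counts and medians and is not reported here by itself. The members and gene lists were chosen with earlier results of these data known. Named genes were every called member, and in each complex the smallest p in each direction (homozygous against wild type), the smallest p (heterozygous against wild type) and the highest and lowest level per length; isoform families; and of each gene list the called genes or else the 2 of smallest p. Ndufb4, Ndufc1, Ndufs5, Ndufa2, Uqcrc1, Uqcr11, Cox6a1, Cox6b1, Atp5j2, Atp5a1, Atp5sl, Tardbp, the genes beside Ndufa12 and the mitochondrial genes of uneven level were added after their values were seen, and so was the principal (APPRIS) transcript length, a median where a gene has several. No pair of libraries of 1 genotype agreed within sampling noise (smallest chi-square per degree of freedom 12.8 over 58 pairs). Intervals cover the spread between libraries, and depth was not limiting for the members.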

Additional observations from a re-analysis of the deposited data

Results flagged for a closer look

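In 102 groups of libraries screened, where chance flags about 1 in 20, a single library stood apart from the rest of its genotype in 10. Homozygous replicate 3 was highest for the complex II sum (609.3 CPM, others 565.1 to 583.6), the complex III sum (820.5 CPM, others 763.3 to 790.2), the complex V sum (3101 CPM, others 2838 to 2954), Atp5c1 (166.9 CPM, others 152.3 to 159.0) and Atp5g3 (120.4 CPM, others 102.1 to 110.5). These values share 1 library, and the sums contain the genes. Heterozygous replicate 1, the library of highest striatal marker level, was highest for the complex I sum (2366 CPM, others 2255 to 2295), and the part of that tissue was not tested. Ndufa12 was highest in homozygous replicate 5 (73.8 CPM, others 40.0 to 52.2). Ndufa4 was lowest in heterozygous replicate 5 (100.3 CPM, others 115.6 to 123.0), and Ndufb9 in wild-type replicate 4 (104.0 CPM, others 110.0 to 113.3). The Atp5g2 share of the 3 c-ring genes was lowest in homozygous replicate 1 (22.1%, others 24.33% to 25.95%).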

How the results depend on the processing

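The median member log2 change kept its sign in all 4 comparisons under every alternative run. For homozygous against wild-type cortex it was -0.046, with -0.059 to -0.041 over 12 alternatives and -0.061 to -0.038 over 20 left-out libraries. Members called in that comparison were 1 in the fit reported, 2 with DESeq2, 2 with the replicate block, 2 with a term for replicate numbers 4 and above (chosen after seeing the data), 0 with 3 surrogate variables, 0 without the 4 ependymal-rich libraries, and 0 among the 77 subunit genes alone, with 0 to 1 over left-out libraries. For the allele trend the same 6 settings gave 2, 2, 2, 0, 0 and 0 beside 1. Homozygous against heterozygous cortex gave 1 with DESeq2 beside 0. No isoform share passed the threshold under any length or left-out library. Same-number libraries correlated over 0.1 in 4 of 6 homozygous and wild-type pairs, 1 of 6 heterozygous and wild-type pairs and 1 of 6 homozygous and heterozygous pairs (range -0.18 to 0.19), so the numbers were not taken as a pairing; under the replicate block the added call was Atp5l (edgeR adjusted p = 0.0141).

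Over all genes, homozygous against wild-type calls were 261, with 638 by DESeq2, 102 with surrogate variables, and 115, 122, 139 and 148 without wild-type replicates 6, 5, 1 and 3 and 147 without homozygous replicate 5. Trend calls were 306, with 696 by DESeq2, 99 with surrogate variables, 193 without the 4 libraries, 189 without homozygous replicate 5 and 159 without wild-type replicate 5 or 6. Homozygous against heterozygous calls were 18, with 103 by DESeq2, 11 with no filter, 1 with surrogate variables, 7 with numbers 1 to 6, and 5 to 31 over left-out libraries. Heterozygous calls were 0, with 2 by DESeq2. The causes were not tested. Levels per length rest on annotated transcripts, and per-length orders within a complex are the least certain values.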
